A study of Mus musculus with 92 samples.

Results

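The genes described here are 40 named genes of fatty acid oxidation, ketone body metabolism and other targets of the nuclear receptor PPARalpha. They were chosen by name and not by a measured value, but with earlier results of these data known. The series holds 22992 genes that have counts or a line in a deposited table of comparisons, and the 40 genes are a part of these. Counts could be used for 37 of the 40, and all 37 passed the filter on low counts. Acadm, Acot1 and Cyp4a10 had no usable counts and are described from the authors' deposited tables alone.

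The livers came from HET3 mice, a genetically heterogeneous stock bred from several inbred strains, of both sexes. Mice ate a Low Isoleucine, a Low Amino Acid or a Control diet, and were killed at 24 or 6 months of age after a fast of 16 hours. Usable counts came from females: 8 on Low Isoleucine, 7 on Low Amino Acid and 8 on Control at 24 months, and 7, 8 and 8 on the same diets at 6 months. No gene was altered in any group, and every group, Control included, was fasted. One label gives a diet start at 9 weeks of age for the 6-month groups and at 6 months for the 24-month groups, while the series' description gives 13 weeks of feeding, so the length of the diet is not settled. The labels used here do not give what the diets contained.

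PPARalpha is a transcription factor that binds fatty acids and their derivatives and acts with a partner, RXR, on the genes that import, activate and oxidise fatty acids. In the fasted liver long fatty acids enter mitochondria on carnitine and are cut stepwise by beta-oxidation, and the acetyl units leave as ketone bodies. Very long and branched chains are shortened in peroxisomes first, and the Cyp4a enzymes oxidise fatty acids at the far end of the chain, which is called omega-oxidation.

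The 46 libraries used held 7.82 M to 27.6 M estimated counts, with a median of 22.6 M (M, 1000000 counts). The smallest, replicate 5 on Low Isoleucine at 24 months, was followed by one of 14.3 M. A library labelled female on Low Isoleucine at 6 months was left out: it had 50.8 CPM of the Y-linked gene Kdm5d, against at most 0.639 CPM in the 46 used. Alb, the main plasma protein of hepatocytes, stood at 40070 CPM or more in every library. CPM, or counts per 1000000, are after TMM scaling here, except those of Kdm5d, which use the library totals alone. Nothing in the labels says whether samples of a group shared a litter or cage. Some libraries of a group share the number in their titles, and its meaning is not stated. A member is called changed at an adjusted p under 0.05, from edgeR's quasi-likelihood test with Benjamini-Hochberg adjustment over 12617 genes. In this bulk tissue fewer cells of a type and less RNA per cell cannot be told apart.

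Among the members the levels per length of transcript ranged widely. In 6-month Control livers Fabp1, the cytosolic fatty acid carrier of liver, had the highest mean, 6439 CPM per kilobase. Cyp4a14, an omega-hydroxylase, followed at 1832 CPM per kilobase, then Slc27a2, a transporter that also activates very long chains, at 794, and Acaa1b, a peroxisomal thiolase, at 780 CPM per kilobase. Pdk4, the kinase that shuts off pyruvate dehydrogenase, had the lowest mean at 8.24 CPM per kilobase. Acot2, a mitochondrial thioesterase, had 16.8 and Cyp4a31 22.6 CPM per kilobase. Cyp4a14, Cyp4a10 and Cyp4a31 are near copies of each other, as are Acot1 to Acot4, and Acaa1b has the near copy Acaa1a. Shared reads may have been split between such copies, so the level of any one of them is uncertain.

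Old Control livers had lower levels of much of the pathway than young ones. In the comparison of 24 with 6 months on Control, 17 of the 37 members were called lower and 0 higher. The background was 11.4 percent of all genes called lower and 16.7 percent called higher. The median log2 fold change was -0.42 over the members and 0.03 over all genes tested, and 35 of the 37 members were below 0. The lower members came from 8 of the 10 roles into which the list was divided, all but electron transfer and ketone body metabolism. The ranges of the old and young Control groups overlapped for every member. The share of all genes with such overlap was not counted.

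The receptor gene itself was among them. Ppara had 103.8, 253 and 332 CPM in 24-month Control livers (lowest, median and highest), against 282, 392 and 495 CPM in 6-month Control livers. Old replicates 3, 4 and 6 lay inside the young range and the other 5 under it, with a log2 fold change of -0.64 ± 0.16 (SE, adjusted p = 0.00247). Creb3l3, a liver transcription factor that works with PPARalpha in fasting, had 212, 305 and 413 CPM at 24 months against 237, 332 and 416 CPM at 6 months. Its groups overlapped almost fully, and its log2 fold change of -0.13 ± 0.14 was not called (adjusted p = 0.508).

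Genes of uptake and of entry into mitochondria were lower by modest amounts. Slc27a2 averaged 1834 ± 583 CPM in old Control livers and 2980 ± 452 CPM in young ones (SD, n = 8 each), a log2 fold change of -0.70 ± 0.16 (adjusted p = 0.00163). Cpt1a, the rate-limiting carnitine palmitoyltransferase, had 836, 951 and 1134 CPM in old Control livers against 945, 1284 and 1570 CPM in young ones. Its log2 fold change was -0.41 ± 0.11 (adjusted p = 0.00629), and the old group was the tighter one. Cpt2, which hands the chain back to coenzyme A inside the mitochondrion, changed by -0.45 ± 0.15 (adjusted p = 0.0265), and Slc25a20, the carrier between them, by -0.39 ± 0.14 (adjusted p = 0.0263). Crot, the peroxisomal octanoyltransferase, was the exception of the shuttle at 0.26 ± 0.21 (adjusted p = 0.375). Acsl1 at -0.43 and Fabp1 at -0.26 did not pass the test.

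Inside the mitochondrion 5 of the 10 measured beta-oxidation members were called lower, and the other 5 had fold changes below 0 without a call. Hadha, the alpha chain of the trifunctional protein that carries the last steps for long chains, had 408, 535 and 712 CPM in old Control livers against 625.4, 755 and 833 CPM in young ones. Old replicates 2 and 6 were the only ones inside the young range, and the log2 fold change was -0.43 ± 0.12 (adjusted p = 0.00832). Its partner chain Hadhb changed by -0.53 ± 0.17 (adjusted p = 0.0141). Decr1, which handles double bonds, changed by -0.53 ± 0.18 (adjusted p = 0.0229), Hadh, the dehydrogenase for shorter chains, by -0.43 ± 0.16 (adjusted p = 0.0406) and Acadl, the long-chain acyl-CoA dehydrogenase, by -0.38 ± 0.12 (adjusted p = 0.01495). Acads, the short-chain dehydrogenase, was at -0.08. The 3 members that pass the electrons on, Etfa, Etfb and Etfdh, lay between -0.34 and -0.08 with 0 calls. Bdh1, which forms 3-hydroxybutyrate, had 145, 454 and 771 CPM in old Control livers against 454, 561 and 777 CPM in young ones, and its -0.37 ± 0.20 was not called (adjusted p = 0.166).

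The largest falls were in peroxisomal, thioesterase and omega-oxidation genes. Cyp4a14 had 65.85, 1163 and 3737 CPM in old Control livers, against 3285, 4450 and 7609 CPM in young ones. Of the 8 old livers, 6 lay under the whole young range, and the log2 fold change was -1.43 ± 0.41 (adjusted p = 0.00822). When only the compared groups were fitted, the call of Cyp4a14 was lost (adjusted p = 0.0545). Cyp4a31, at a low level of 2.503 to 32.1 CPM against 18.1 to 109.1 CPM, changed by -1.65 ± 0.49 (adjusted p = 0.0108), the largest fall of the list. Acot4, a peroxisomal thioesterase, had 29.3, 124 and 320 CPM in old Control livers against 240, 331 and 532 CPM in young ones, a change of -1.32 ± 0.32 (adjusted p = 0.00216). Old replicate 6 alone reached the young range of Acot4. Ehhadh, the peroxisomal bifunctional enzyme, had 247, 756 and 1687 CPM in old Control livers against 1331, 1847 and 2358 CPM in young ones. Its log2 fold change was -1.23 ± 0.33 (adjusted p = 0.00551), and again only replicate 6 lay within the young range. Abcd3, a peroxisomal membrane transporter, changed by -0.67 ± 0.20 (adjusted p = 0.0113) and Hsd17b4, the other peroxisomal bifunctional enzyme, by -0.42 ± 0.12 (adjusted p = 0.00711). Vnn1, the pantetheinase that is a standard PPARalpha target, had 69.5, 138 and 250 CPM in old Control livers against 132, 267 and 468 CPM in young ones and changed by -0.99 ± 0.28 (adjusted p = 0.00795). Pdk4 went the other way without a call, at 0.43 ± 0.49 (adjusted p = 0.55). Acot2, Acot3, Acaa1b and Pex11a were at -0.85, -1.07, -0.61 and -0.56 with adjusted p between 0.111 and 0.205.

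**Figure D1:**
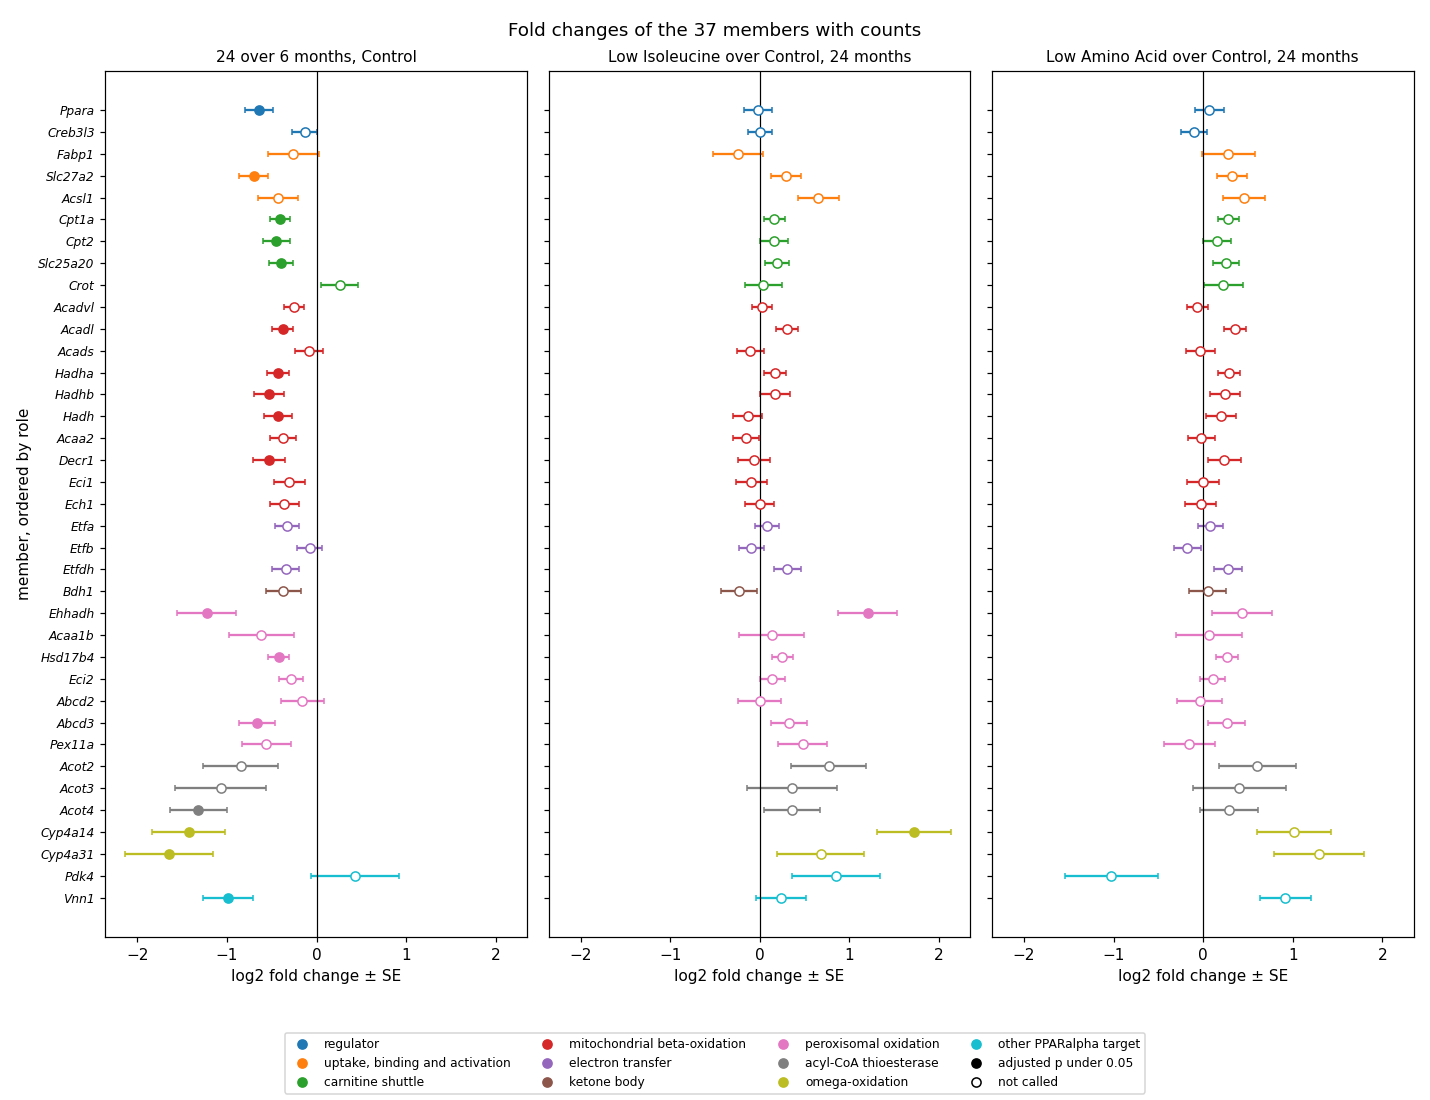
Fitted log2 fold changes (x axis, bars ± SE) of the 37 members with counts, ordered by role (y axis, colours), with called members filled. On Control, 24 over 6 months, 35 of 37 points lie below 0 and 17 are called. In the diet comparisons at 24 months 2 points are called, Cyp4a14 and Ehhadh on Low Isoleucine.

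The old Control livers differed widely among themselves. Replicates 2 and 6 had 3610 and 3737 CPM of Cyp4a14 and 1317 and 1687 CPM of Ehhadh, close to the young livers. Replicate 1 had 65.85 CPM of Cyp4a14, 247 CPM of Ehhadh and 29.3 CPM of Acot4. Replicate 5 was split: its Ehhadh of 331 CPM and its Ppara of 103.8 CPM were low, while its Cyp4a14 of 2624 CPM was the third highest of the old Controls. Marker lists moved with age in the same livers. The 14 acute phase genes with counts, which encode plasma proteins of inflammation, summed to 23710 to 199700 CPM in old Control livers and 18470 to 28960 CPM in young ones, and 13 of 14 were called higher. Replicates 1 and 5 had the highest sums, 112100 and 199700 CPM, and replicates 6, 4 and 2 the lowest, 23710, 26920 and 31780 CPM. The 11 neutrophil genes summed to 9.21 to 821 CPM in old Control livers and 3.72 to 9.47 CPM in young ones, with all 11 called higher, and were highest in replicates 4 and 1. Macrophage genes were called higher for 9 of 11 and lymphocyte genes for 9 of 12, while 3 of 11 hepatocyte genes were called lower and 1 higher. The adipocyte gene Lep was at 0 in every Control library of both ages. The 5 adipocyte genes with counts summed to 4.18 to 12.8 CPM in old Control livers and 5.48 to 18.4 CPM in young ones. The part of these cells and of inflammation in the lower members was not tested.

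Without replicates 1 and 5, 8 members were called lower: Acot4, Cpt1a, Cyp4a14, Cyp4a31, Ehhadh, Ppara, Slc27a2 and Vnn1, all among the 17. In that fit 7.32 percent of all genes were called lower. Ehhadh then stood at -0.95 (adjusted p = 0.0401) and Cyp4a14 at -1.31 (adjusted p = 0.0115). The 5 mitochondrial beta-oxidation members lost their calls, as did Cpt2 and Slc25a20, Hadha being at -0.33 (adjusted p = 0.066). Leaving out replicate 6 instead gave 29 members called lower, beside 13.7 percent of all genes.

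**Figure D2:**
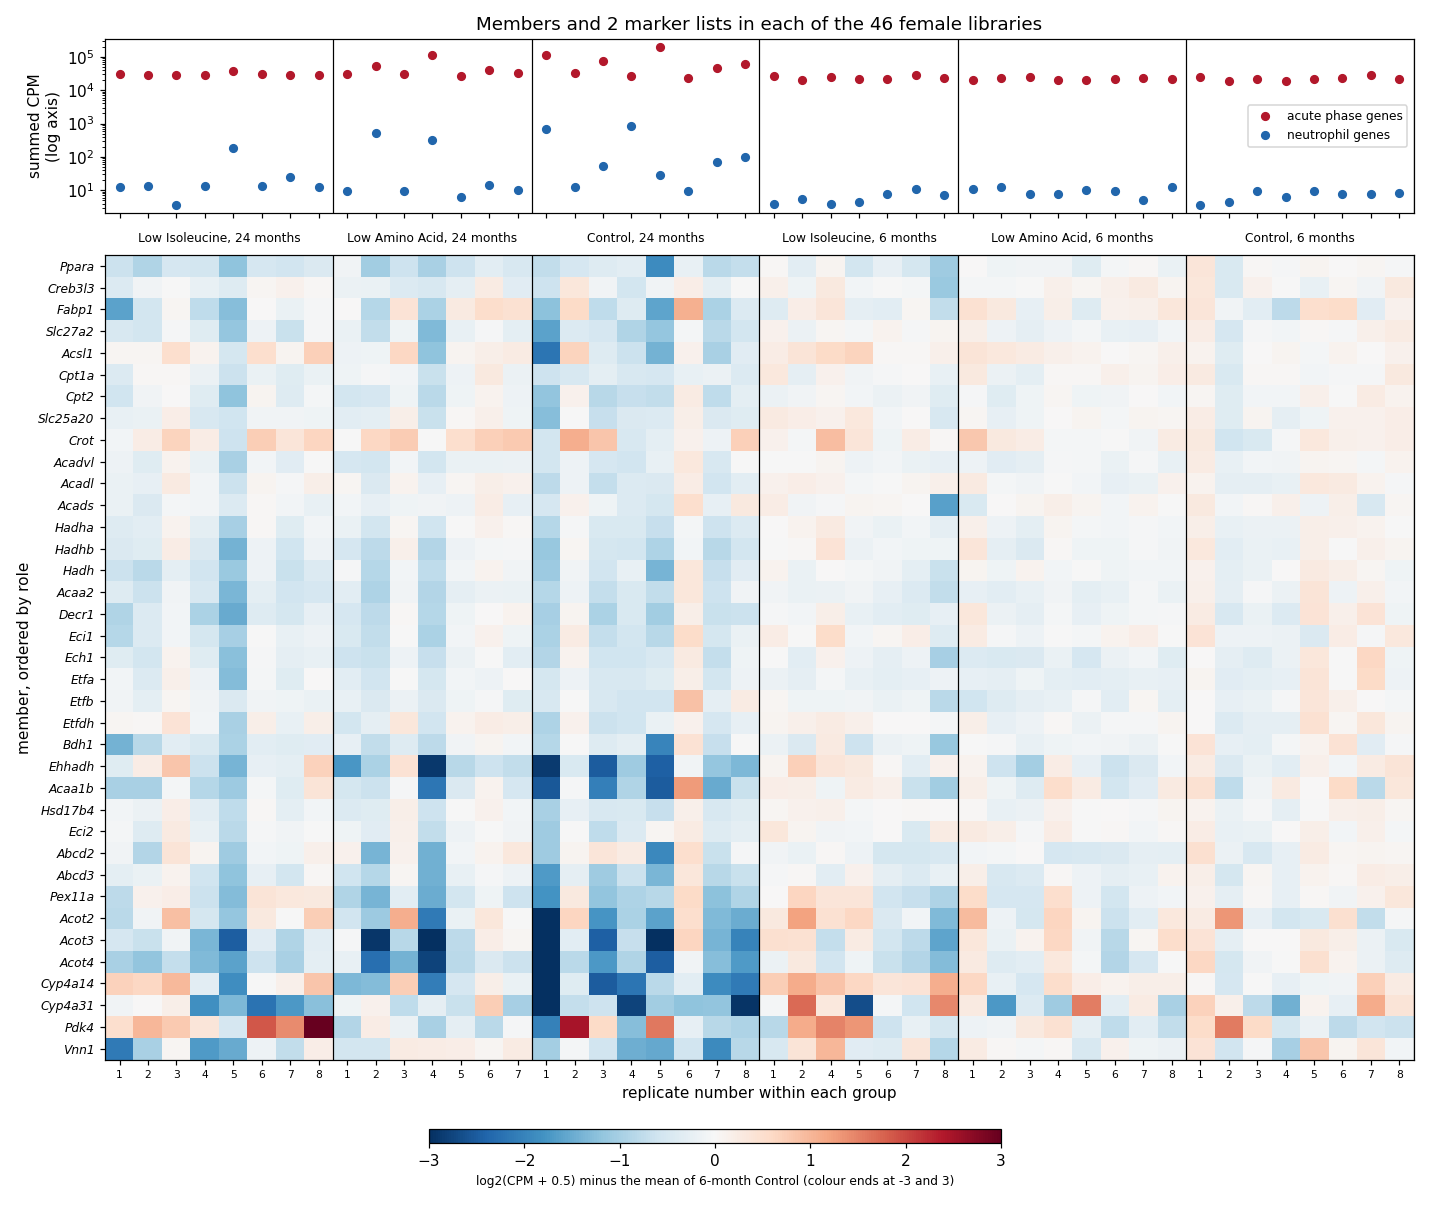
Each column is 1 of the 46 female libraries, grouped by diet and age. The upper panel gives summed CPM of 14 acute phase and 11 neutrophil genes (log axis), and the lower panel gives the log2 level of each member (y axis) minus its mean in 6-month Control. Blue cells gather in old Control replicates 1, 3 and 5, in old Low Amino Acid replicate 4 and in old Low Isoleucine replicate 5.

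On the restricted diets the same age comparison called 0 members. For Low Isoleucine 33 of 37 members were below 0 with a median of -0.21, and for Low Amino Acid 30 of 37 with a median of -0.19, beside medians of 0.01 over all genes in both. The shares of all genes called in either direction were 7.34 percent on Low Isoleucine and 1.61 percent on Low Amino Acid. At an unadjusted p under 0.05 there were 7 and 4 members, all lower, beside 25.2 and 13.8 percent of all genes in either direction. Counted in either direction, the members were thus no more than the background. The share of all genes that were lower at that threshold was not counted. Of the 17 members called on Control, 17 were below 0 on Low Isoleucine and 15 on Low Amino Acid, with medians of -0.32 and -0.19 against -0.53 on Control. Ehhadh averaged 1809 ± 870 CPM at 24 months (n = 8) and 2100 ± 478 CPM at 6 months (n = 7) on Low Isoleucine, a change of -0.22 ± 0.34. Cyp4a31 on Low Isoleucine had a change of -1.30 ± 0.50, nearly that on Control, but was not called (adjusted p = 0.0922). Vnn1 on Low Amino Acid was at 0.06 ± 0.29.

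The difference between diets in this age change was tested directly. The diet effect at 24 months minus that at 6 months was called for 0 members, and for 0 percent of all genes, for either restricted diet. Without 4 libraries at 24 months (replicates 2 and 5 on Low Isoleucine, 2 and 4 on Low Amino Acid), 0.83 percent of all genes were higher and 3.29 percent lower for Low Amino Acid, with 0 members called. The smallest adjusted p among members was 0.55 for Low Isoleucine and 0.482 for Low Amino Acid. Ehhadh had the largest difference on Low Isoleucine, 1.012 ± 0.47 (unadjusted p = 0.0381). On Low Amino Acid 3 members had an unadjusted p under 0.05: Vnn1 at 1.04 ± 0.40, Cyp4a31 at 1.46 ± 0.69 and Acadl at 0.41 ± 0.17, beside 10.3 percent of all genes in either direction. The loss of calls on the restricted diets is thus not shown to be a difference between diets.

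**Figure D3:**
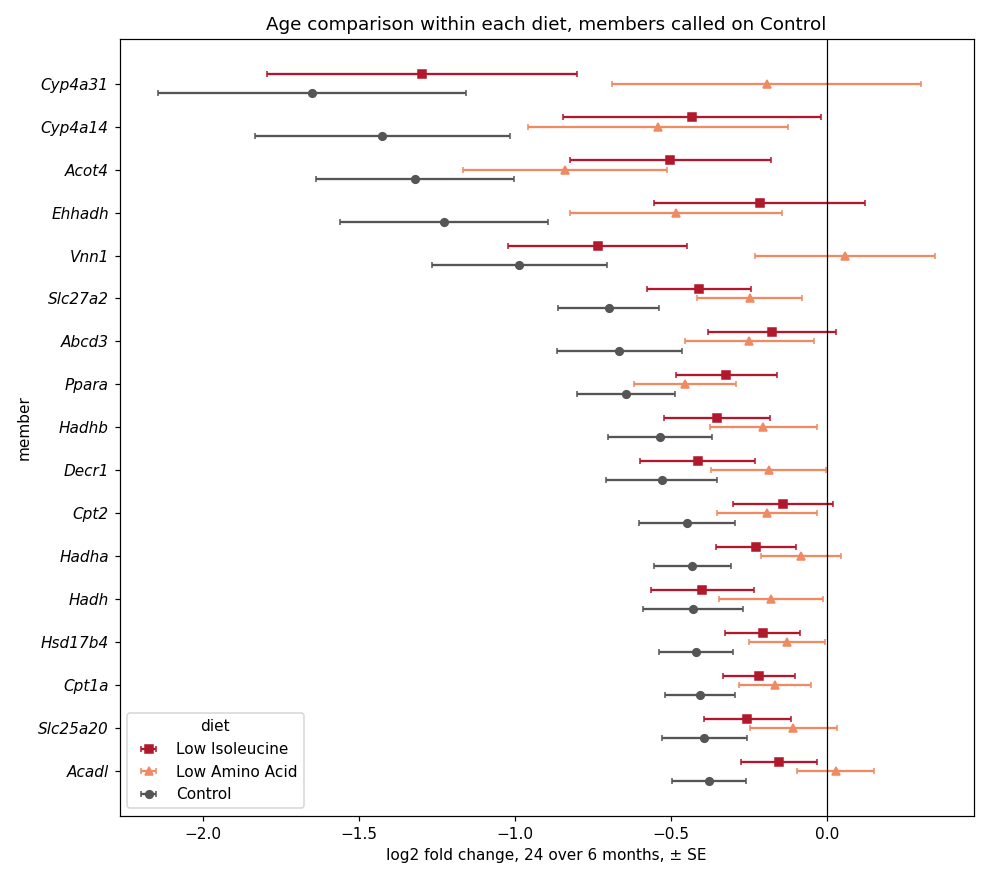
Log2 fold change, 24 over 6 months (x axis, bars ± SE) within each diet for the 17 members called lower on Control (y axis, in order of their fall there). The members were picked on the Control values, so the Control points are the extreme ones by choice. The Low Isoleucine points lie between -1.30 and -0.14 and the Low Amino Acid points between -0.84 and 0.06.

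At 24 months the Low Isoleucine diet was set against Control, with the same 8 old Control livers as in the age comparison. Of the 37 members 2 were called higher and 0 lower, on a background of 2.69 percent of all genes called higher and 3.79 percent lower. Cyp4a14 had 1273, 6144 and 9123 CPM on Low Isoleucine, against 65.85, 1163 and 3737 CPM on Control. Only 2 of the 8 Low Isoleucine livers lay at or under the highest Control liver, and the log2 fold change was 1.72 ± 0.41 (adjusted p = 0.00886). Ehhadh had 686, 1503 and 3217 CPM on Low Isoleucine, against 247, 756 and 1687 CPM on Control. The groups overlapped, and the change was 1.20 ± 0.33 (adjusted p = 0.0211). The means of Cyp4a14 and Ehhadh on Low Isoleucine, 5853 and 1809 CPM, stood beside 4766 and 1838 CPM in 6-month Control livers. Without old Control replicates 1 and 5, Cyp4a14 remained called at 1.60 (adjusted p = 0.00907), and Ehhadh was at 0.92 and lost its call (adjusted p = 0.0833). When only these 2 groups were fitted, 0 members were called, Cyp4a14 having an adjusted p of 0.153.

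The other members of the Low Isoleucine comparison at 24 months had a median of 0.16 with Cyp4a14 and Ehhadh included, against -0.02 over all genes. Of the 37 members, 26 were above 0. Acsl1, the main long-chain acyl-CoA synthetase of liver, averaged 1934 ± 497 CPM on Low Isoleucine and 1231 ± 716 CPM on Control (SD, n = 8 each) with a change of 0.65 ± 0.23 that was not called (adjusted p = 0.0735). Ppara did not differ beyond its error, at -0.02 ± 0.16, with medians of 260 and 253 CPM. Creb3l3 was at 0.002 ± 0.14, Cpt1a at 0.16 ± 0.11, Hadha at 0.17 ± 0.12, Vnn1 at 0.24 ± 0.28, Bdh1 at -0.24 ± 0.20 and Pdk4 at 0.85 ± 0.49. Acute phase genes moved the other way from Cyp4a14: 11 of 14 were called lower on Low Isoleucine, with sums of 28130 to 37260 CPM against 23710 to 199700 CPM on Control. Of the 11 neutrophil genes 3 were called lower (median -3.06), with sums of 3.55 to 189 CPM on Low Isoleucine against 9.21 to 821 CPM on Control, and 2 of 11 hepatocyte genes were called lower. The part of inflammation and of these cells in the 2 member calls was not tested.

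On Low Amino Acid at 24 months 0 of 37 members were called, beside 0.745 percent of all genes in either direction. At an unadjusted p under 0.05 there were 7 members, all higher: Vnn1, Acadl, Cyp4a31, Cyp4a14, Cpt1a, Hadha and Hsd17b4. At that threshold stood 16.9 percent of all genes in either direction, close to the members' share in either direction. The share of all genes that were higher at that threshold was not counted. DESeq2 also called 0. Vnn1 came closest: it had 180, 303 and 313 CPM on Low Amino Acid against 69.5, 138 and 250 CPM on Control, with 5 of the 7 Low Amino Acid livers above every Control liver. Its change was 0.92 ± 0.29 (adjusted p = 0.099). Cyp4a14 had 1100, 3274 and 7771 CPM on Low Amino Acid and was at 1.014 ± 0.42 (adjusted p = 0.209). Ehhadh was at 0.43 ± 0.34, Cpt1a at 0.28 ± 0.12, Hadha at 0.29 ± 0.13, Ppara at 0.07 ± 0.16, Creb3l3 at -0.10 ± 0.14, Bdh1 at 0.05 ± 0.21 and Pdk4 at -1.02 ± 0.52. Replicate 4 of this group, with 331.6 CPM of neutrophil and 111400 CPM of acute phase genes, had the lowest Acaa1b (323.5 CPM) and Acot4 (49.9 CPM) of its group. Replicate 2 had a higher neutrophil sum, 521.9 CPM, and was the lowest for neither gene. Without replicates 2 and 4 here and replicates 2 and 5 on Low Isoleucine, 7 members were called higher in each diet comparison. This removal was from the restricted diets alone. The Low Isoleucine libraries left out had neutrophil sums of 13.04 and 188.9 CPM. Every old Control liver stayed in, among them replicates 1 and 4 with 675.8 and 821 CPM. Calls over all genes were more in that fit too: 3.57 percent higher and 8.08 percent lower for Low Amino Acid, and 4.6 percent higher and 9.41 percent lower for Low Isoleucine. In that fit Vnn1 was at 0.97 (adjusted p = 0.037) and Cyp4a14 at 1.32 (adjusted p = 0.0311) on Low Amino Acid.

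**Figure D4:**
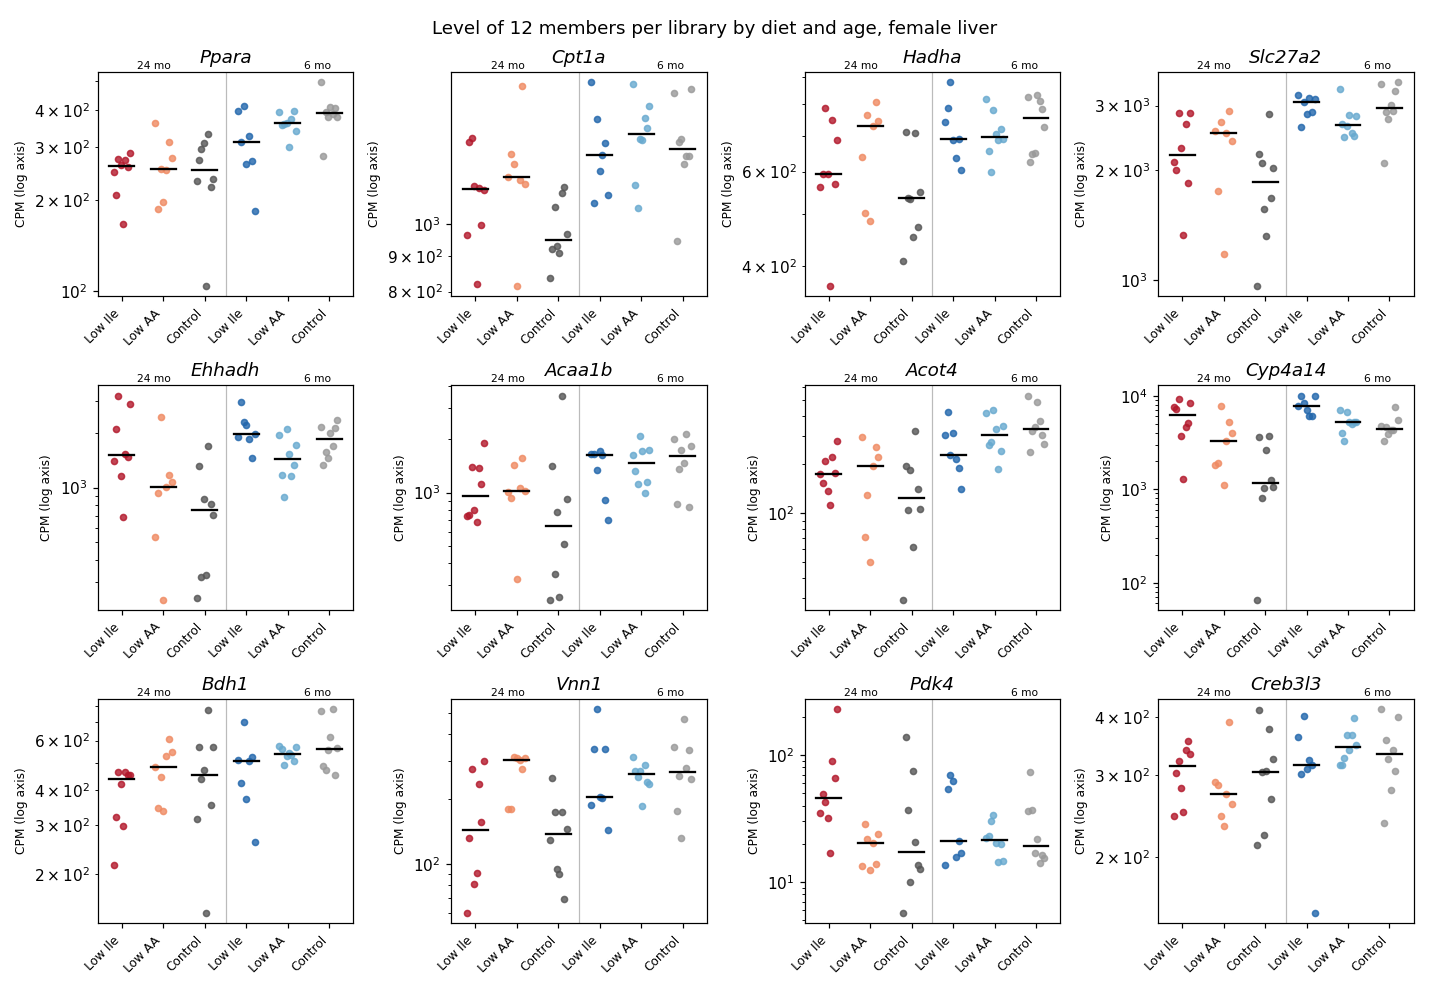
CPM per library (y axis, log scale) of 12 members by diet and age (x axis), with a bar at each group's median. Old Control livers are the widest group for Cyp4a14, from 65.85 to 3737 CPM. On Low Isoleucine at 24 months 7 of 8 livers lie at 3717 CPM or above.

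The restricted diets were also set against each other. At 24 months 0 of 37 members were called for Low Isoleucine over Low Amino Acid, beside 1.25 percent of all genes in either direction, and 4 members had an unadjusted p under 0.05, beside 15.8 percent of all genes. Pdk4 had 17.1, 45.9 and 231 CPM on Low Isoleucine, against 12.3, 20.4 and 28.6 CPM on Low Amino Acid. All Low Isoleucine livers but replicate 5 lay above every Low Amino Acid liver, and the change was 1.88 ± 0.53 (adjusted p = 0.0601). It passed the threshold in DESeq2, with an adjusted p of 0.02, and also without old Control replicates 1 and 5 and in voom with quality weights. Without Low Isoleucine replicate 8 it was 1.31 (adjusted p = 0.216). Vnn1 was at -0.68 ± 0.29 and Ehhadh was at 0.77 ± 0.34, neither called. Pex11a, which drives peroxisome division, was at 0.63 ± 0.28.

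At 6 months no diet moved a member past the threshold. Low Isoleucine over Control had 0 members called beside 0.0238 percent of all genes, and 1 member, Ppara, at an unadjusted p under 0.05, beside 10.1 percent of all genes. Low Amino Acid over Control had 0 called beside 0 percent of all genes, and 2 members, Etfa and Ech1, at an unadjusted p under 0.05, beside 8.11 percent. Low Isoleucine over Low Amino Acid had 0 called beside 0.0159 percent, and 0 at an unadjusted p under 0.05, beside 9.99 percent. DESeq2 called 0 members in each of the 3. Ppara had 185, 312 and 411 CPM on Low Isoleucine against 282, 392 and 495 CPM on Control, a change of -0.34 ± 0.16 (adjusted p = 0.477). Cyp4a14 had 6005, 7782 and 10020 CPM on Low Isoleucine against 3285, 4450 and 7609 CPM on Control, with a change of 0.73 ± 0.41 (adjusted p = 0.593). For Low Isoleucine and Low Amino Acid in turn, Cpt1a was at -0.03 and 0.04, Hadha at -0.04 and -0.06, Ehhadh at 0.19 and -0.31, Bdh1 at -0.32 and -0.12 and Pdk4 at 0.32 and -0.38. The spread of many members was narrow at this age: on Low Amino Acid Bdh1 averaged 538 ± 29.4 CPM and Etfa, a chain of the electron transfer flavoprotein, 231 ± 9.29 CPM (SD, n = 8).

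A wider list of 66 genes of the same pathway had 58 tested. With age on Control 20 were called lower and 4 higher, with a median of -0.29, beside the 11.4 percent lower and 16.7 percent higher of all genes. The share higher was thus under the background. By size of change the first were Cyp4f14, a fatty acid omega-hydroxylase, at -0.97 ± 0.22, and Slc16a6, of the monocarboxylate transporter family, at 0.96 ± 0.23. Aldh3a2, the fatty aldehyde dehydrogenase, was at -0.94 ± 0.29, Ppargc1b, a coactivator of nuclear receptors, at -0.90 ± 0.24 and Slc16a1, a transporter of lactate and ketone bodies, at 0.88 ± 0.26. Aldh3a2 lost its call without old Control replicates 1 and 5 (adjusted p = 0.0697) and with only the compared groups (adjusted p = 0.0751), and Slc16a1 with the title number as a random term (adjusted p = 0.0522).

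In the other comparisons the wider list had few calls. On Low Isoleucine at 24 months Crat, the carnitine acetyltransferase, was higher than on Control at 0.60 ± 0.17 (adjusted p = 0.0267), and Nudt7, a peroxisomal hydrolase of coenzyme A, was lower at -0.67 ± 0.18 (adjusted p = 0.0174). Both calls were lost with only the compared groups (adjusted p = 0.177 for Crat and 0.156 for Nudt7), that of Crat also without old Control replicates 1 and 5 (0.0959) and that of Nudt7 also with the title number as a random term (0.0762). At 24 over 6 months on Low Isoleucine, Slc27a1, a fatty acid transporter, was lower at -0.63 ± 0.17 (adjusted p = 0.0181), and so was Rxra, the partner of PPARalpha, at -0.30 ± 0.10 (adjusted p = 0.0445). Both calls were lost with only the compared groups (adjusted p = 0.0592 for Slc27a1 and 0.105 for Rxra) and with the title number as a random term (0.0691 and 0.113). That of Rxra was also lost with no filter on low counts (adjusted p = 0.062), without the 4 libraries of the restricted diets (0.244) and in 11 of the 46 fits that left out 1 library. On Low Amino Acid Pparg, the adipose receptor of the same family, was higher at 24 than at 6 months, at 0.94 ± 0.23 (adjusted p = 0.0214). It lost its call with the library that had been left out (adjusted p = 0.0689) and without the 4 libraries of the restricted diets (0.0577). On Control Pparg was also called higher with age, at 0.85 (adjusted p = 0.00411). Slc27a1 was called lower with age on Control too, at -0.46 (adjusted p = 0.0318). That call was lost without old Control replicates 1 and 5 (0.157) and in voom with quality weights (0.0518). It was also lost with the title number as a random term (0.0512). No gene of the wider list was called at 6 months, on Low Amino Acid over Control at 24 months, or between the restricted diets at 24 months.

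The promoters of members with RefSeq entries were searched for a PPAR response element, a direct repeat of AGGTCA with 1 base between, on both strands. Windows ran from 250 bases before to 50 after a start (GRCm38.p6), and 32 of the 40 members had a window. With at most 2 mismatches in the 12 fixed letters, 5 of the 32 held a repeat, 15.6 percent, against 4.4 percent of the 27025 genes of the table. With at most 1 mismatch it was 1 of 32, Fabp1, against 0.644 percent of all genes. The single site AGGTCA, which the repeat contains, was in 8 of 32 members and in 18.1 percent of all genes. The best match is shown for each of the 5 members with at most 2 mismatches. Capitals mark the repeat or its reverse complement, and positions count the start as 0.
Fabp1, chr6:71199629-71199928, plus strand, positions -67 to -55: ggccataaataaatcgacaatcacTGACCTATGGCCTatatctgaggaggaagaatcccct
Acot4, chr12:84038129-84038428, plus strand, positions -13 to -1: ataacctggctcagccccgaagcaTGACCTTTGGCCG
Etfa, chr9:55512194-55512493, minus strand, positions -77 to -65: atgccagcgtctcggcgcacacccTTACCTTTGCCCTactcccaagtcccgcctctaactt
Creb3l3, chr10:81092542-81092841, minus strand, positions -209 to -197: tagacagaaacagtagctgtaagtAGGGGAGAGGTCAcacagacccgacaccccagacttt
Slc25a20, chr9:108661886-108662185, plus strand, positions 6 to 18: AGGTGAAAGGTCG
Acot4 and Slc25a20 were called lower with age on Control, and Fabp1, Etfa and Creb3l3 were not. A match is a run of letters and not a measured binding site, and windows of this length leave out distant elements.

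Deposited comparisons extend the account to all 40 members and to males. In the authors' deposited table for females, 28 of 40 members were lower at 24 than at 6 months on Control and 0 higher, on a background of 11.1 percent of genes lower. The 3 members without usable counts were among them: Acot1, a cytosolic thioesterase, at -2.80, Cyp4a10 at -2.34 and Acadm, the medium-chain acyl-CoA dehydrogenase, at -0.65. For Low Isoleucine over Control at 24 months the same table had 7 members higher beside 4.03 percent of genes, with Acot1 at 2.57, Cyp4a14 at 2.38, Cyp4a10 at 2.34, Ehhadh at 1.46, Acsl1 at 0.94, Acadm at 0.45 and Acadl at 0.40. For Low Amino Acid it had 9 higher beside 2.87 percent, led by Acot1 at 2.44, Cyp4a10 at 1.81 and Cyp4a14 at 1.79. These 3 comparisons share the old Control livers. The deposited female fold changes matched folds of the counts more closely without replicates 2 and 5 on Low Isoleucine (r = 0.996 across 9061 genes, against 0.941 with them). The same held without replicates 2 and 4 on Low Amino Acid (r = 0.997, against 0.931), so the table may not rest on those 4 libraries. For 24 over 6 months on Control the match with all libraries was r = 0.998. If the 4 were left out, the removal was from the restricted diets alone, which bears on these diet calls.

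In males the authors' deposited table had 23 of 40 members lower at 24 than at 6 months on Control, on a background of 11.7 percent, and all 40 were below 0. The lowest were Acaa1b at -2.43, Acot1 at -2.28, Cyp4a31 at -2.25, Acot2 at -1.81 and Ehhadh at -1.78. Of the 23, 16 were also lower in the female table, which is 69.6 percent of the male list and 57.1 percent of the female list. Of all 40 members 70 percent were lower in the female table and 57.5 percent in the male one, so the lists shared no more than these shares alone give. Lower in the male table and not called in the female one were Bdh1 at -1.33, Fabp1 at -1.26, Acads at -0.73, Creb3l3 at -0.72, Eci1, Eci2 and Etfb. Whether the sexes differ in these genes was not tested.

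For the diets at 24 months in males the authors' deposited table called 0 members for Low Isoleucine over Control and 0 for Low Amino Acid, with 0.0394 percent of all genes called higher in each. All 40 members were above 0 for both diets, with medians of 0.57 and 0.34, beside medians of -0.004 and 0.03 over all genes. For Low Isoleucine 32 of the 40 had an unadjusted p under 0.05, beside 6.9 percent of all genes higher at that threshold. For Low Amino Acid it was 5 of 40 beside 7.44 percent. Pdk4 at 2.34, Acot1 at 2.15 and Acot3 at 1.91 were the largest for Low Isoleucine, and the smallest adjusted p was that of Slc27a2, 0.101. The 40 values share the same libraries and are not independent of each other.

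At 6 months the males had a few calls. In the authors' deposited male table Acads was at -1.25 on Low Isoleucine and -1.03 on Low Amino Acid, Creb3l3 at -0.92 and -0.83 and Etfb at -0.56 and -0.43, all called, and Ech1 was called on Low Isoleucine at -0.57. That made 4 members on Low Isoleucine beside 11.7 percent of all genes lower, and 3 on Low Amino Acid beside 11 percent, which is no more than the background share. In females of this age Creb3l3 and Acads had no call in the counts. Acads was also the 1 member higher at 24 than at 6 months in males on Low Isoleucine, at 0.61 beside 3.01 percent of all genes.

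**Figure D5:**
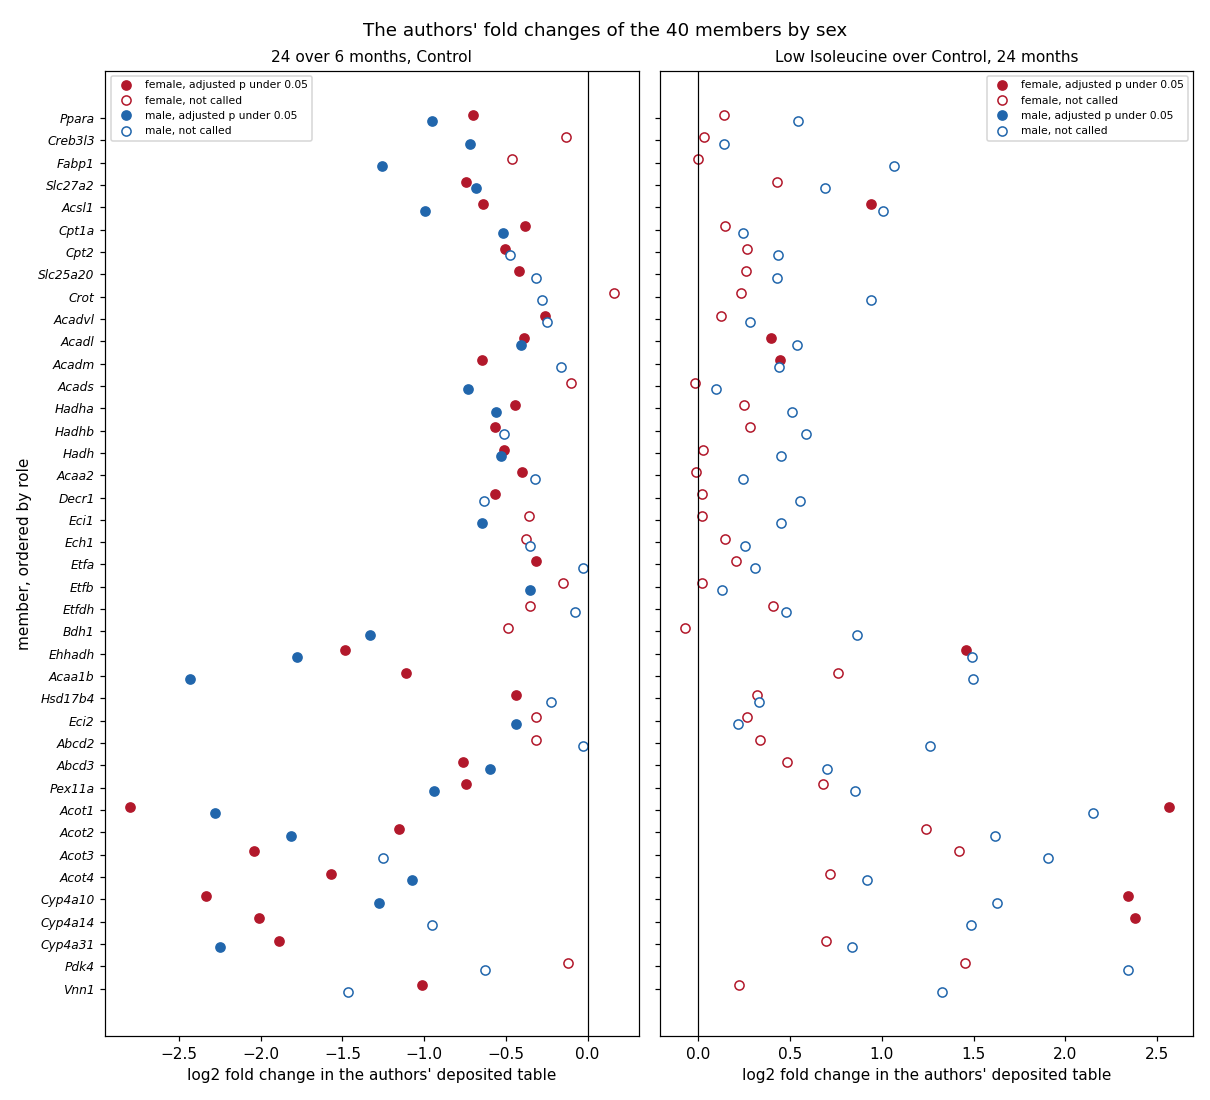
Log2 fold changes of the 40 members (y axis) in the authors' deposited tables, for 24 over 6 months on Control and for Low Isoleucine over Control at 24 months (x axes), females in red and males in blue, filled where the adjusted p is under 0.05. In the age panel the males lie between -2.43 and -0.03 and the females between -2.80 and 0.16. In the diet panel all male points are above 0 and none is called.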

How the data were processed

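Stranded libraries of polyadenylated RNA were made from fasted liver, per the labels' protocols. The submitters' processing notes name edgeR, limma, R 3.4.3 and GRCm38.p5; no aligner setting is stated there. The values deposited by the authors are RSEM estimated counts per gene, and they were rounded to whole numbers here. Of 51912 lines in the table, 17275 were filled in all columns and 34637 held 47 values. The 45 male columns were not used, since Alb had a median of 75 there against 1905880 in the female columns. The authors' deposited tables give log2 fold changes with p-values and adjusted p-values for both sexes. The members and lists were chosen with earlier results of these data known.

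The 46 female libraries were fitted together with edgeR 4.0.16 (R 4.3.3), with TMM scaling, edgeR's own filter on low counts and 1 mean per group, by the quasi-likelihood test with Benjamini-Hochberg adjustment over 12617 genes. The SE is the log2 fold change divided by the square root of F. The method was tested on simulated data. Levels are TMM-scaled CPM, except those of Kdm5d, and per kilobase they use the union of exons of GENCODE M21. Named with values were the called members, and in the main comparisons Ppara, Cpt1a, Acadm, Hadha, Ehhadh, Bdh1, Acot1, Cyp4a10, Cyp4a14, Pdk4, Vnn1 and Creb3l3 whatever their values, and up to 5 called genes of the wider list per comparison by size of change; other members are named to account for all 40. Alternatives were RLE scaling, no filter, DESeq2 1.42.0, voom with quality weights in limma 3.58.1, the compared groups alone, and leaving out libraries. A further alternative took the number in the sample titles as a random term, in voom and not in edgeR. In the main fit each p-value sets a difference of group means against a spread between samples that was estimated over all groups together. The compared groups' own spread, wide in old Control livers, was used only where those groups were fitted alone. Sample depth set the counting error of low genes such as Pdk4. Some results on genes of the wider list are not reported here.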

Additional observations from a re-analysis of the deposited data

Results flagged for a closer look

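Among the named members, 8 of 72 groups held a library that stood apart from the rest of its group by Dixon's ratio, whose critical value is 0.568 for 7 libraries and 0.526 for 8. Chance flags about 1 in 20 groups. In 24-month Control livers, Ppara was lowest in replicate 5 at 103.8 CPM, the next being 221.1 CPM, and Cyp4a14 was lowest in replicate 1 at 65.85 CPM, the next being 814.1 CPM. These are the livers with the highest acute phase sums. In replicate 5 on Low Isoleucine at 24 months, which had the fewest counts of all libraries and the highest neutrophil sum of its group, Hadha was lowest at 367.3 CPM and Cyp4a14 at 1273 CPM, the next being 561 and 3717 CPM. On Low Amino Acid at 24 months Acaa1b was lowest in replicate 4 at 323.5 CPM, the next being 931 CPM, and Creb3l3 was highest in replicate 6 at 390.8 CPM, the next being 289.3 CPM. At 6 months Creb3l3 was lowest in replicate 8 on Low Isoleucine at 151.5 CPM, the next being 301.3 CPM, and Ppara was lowest in replicate 2 on Control at 281.8 CPM, the next being 379.1 CPM. The part of depth, neutrophils and acute phase genes in these values was not tested.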

How the results depend on the processing

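For age on Control, 17 members called became 8 without old Control replicates 1 and 5 and 10 with only the compared groups. The number ranged from 13 to 29 when 1 library was left out. With only the compared groups, Cyp4a14, Acadl, Hadh, Abcd3, Decr1, Cpt2 and Slc25a20 lost their calls. Of all genes 11.4 percent were called lower in the main fit, 7.32 percent without those replicates and 7.06 percent with only the compared groups. For Low Isoleucine over Control at 24 months, 2 became 1 without those replicates, 0 with only the compared groups and 7 without 4 libraries of the restricted diets, and ranged from 1 to 5 when 1 library was left out. The shares of all genes called higher in these 3 fits were 2.46, 0.116 and 4.6 percent in turn. For Low Amino Acid over Control at 24 months, 0 became 7 without the 4 libraries, beside 3.57 percent of all genes called higher, and ranged from 0 to 1. For Low Isoleucine over Low Amino Acid at 24 months, 0 became 1 without the Control replicates, 1 in DESeq2 and 2 in voom with quality weights, and ranged from 0 to 1. Of all genes 0.53 percent were called higher and 1.93 percent lower without the Control replicates, and 0.705 and 1.9 percent in DESeq2. In voom the shares were 2.56 percent higher and 4.03 percent lower. For age on Low Isoleucine voom called 3 (0 to 2 when 1 library was left out), and for age on Low Amino Acid it called 1. These voom calls were all lower, beside 4.34 and 1.54 percent of all genes called lower in turn. The causes were not tested. No member was called at 6 months, or for a difference between ages in a diet effect, under any alternative run.

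Signs turned only for members with no call. Ppara on Low Isoleucine was 0.09 without the 4 libraries, 0.0152 in voom and 0.0401 with the title number (-0.1376 to 0.0512 with 1 library left out). Creb3l3 on Low Isoleucine was -0.0047 with RLE, -0.0001 with no filter, -0.0733 without the Control replicates, -0.0046 in DESeq2 and -0.006 in voom (-0.0584 to 0.079). On Low Amino Acid, Ppara was -0.0788 and Bdh1 -0.1698 without the Control replicates (-0.0434 to 0.1391 and -0.0833 to 0.2014). Pdk4 with age on Control was -0.0186 in voom and -0.1533 with the title number (-0.2243 to 0.7921).

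The number in the sample titles did not pair samples by any label. With the number as a random term (correlation 0.111) 23 members were called lower with age on Control, beside 10.9 percent of all genes. That fit used voom and not edgeR, so its changes in calls mix the method with the shared number.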
